A study of Mus musculus with 18 samples.

Results

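BAFF 60mer and BAFF 3mer, forms of the B cell cytokine BAFF that differ in how many subunits are joined, were compared in mouse B cells that had been pretreated with mBaffR-mFc. The comparison rests on 6 of the 18 RNA-seq libraries of the study, 3 with the 60mer and 3 with the 3mer, and on the 11646 of 35275 genes whose mean level over all libraries reached 1 FPKM (fragments per kilobase of gene and per M fragments; M, mega). Pan B cells from the spleens of C57BL/6 mice were held for 1 h with 1000 ng/ml of mBaffR-mFc, which the study describes as a block of the BAFF site that binds BR3, and then for 4 h with 100 ng/ml of either form. A group with mBaffR-mFc and no BAFF, and 3 groups that received a control antibody in place of mBaffR-mFc (no BAFF, 3mer, 60mer), make up the other 12 libraries, again 3 per group. The labels do not give the animals' age or sex, which control antibody was used, or whether the replicates came from separate mice, so a p-value here reflects the scatter among libraries alone, which may be technical.

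BAFF (Tnfsf13b) is a TNF family cytokine on which mature B cells depend for survival. It circulates as trimers, and trimers can join into larger particles. On B cells it binds BR3 (Tnfrsf13c), TACI (Tnfrsf13b) and BCMA (Tnfrsf17). BR3 signals mainly through the noncanonical NF-kB pathway, in which the loss of TRAF3 lets the kinase NIK act on the p100 precursor encoded by Nfkb2, whose product p52 pairs with RelB. TACI responds to BAFF in its larger assemblies.

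With mBaffR-mFc present, the 60mer libraries differed from the 3mer libraries in 601 of 11646 genes (5.16%) by limma at a Benjamini-Hochberg adjusted p under 0.05. Of these, 239 genes (2.05% of those tested) were higher with the 60mer and 362 (3.11%) were lower. Transcripts of amino acid breakdown (Il4i1, Kynu), NF-kB genes (Nfkb2, Birc3, Nfkbie) and the low-affinity IgE receptor Fcer2a were among the higher ones. The egress receptor S1pr1, the heparan sulfate proteoglycan Sdc1 and the inhibitory Fc receptor Fcgr2b were among the lower ones. Most differences were small: the median size of a called difference was 0.29 on the log2(FPKM + 1) scale, on which all differences below are given as 60mer minus 3mer, and 31 of the 601 exceeded 1.5-fold. The 60mer and 3mer libraries did not overlap in 598 of the 601, against 2816 of all tested genes (24.2%). Since the 601 were picked on these same libraries, this is largely set by the choice and adds no support. Counts depended on single libraries: 270 genes passed without replicate 2 of the 3mer, 233 without replicate 3 of the 3mer and 343 without replicate 2 of the 60mer, and 190 of the 601 passed whichever library was left out. When libraries were rescaled by the median of ratios, 297 genes were higher and 309 lower, so that the higher share went from 39.8% to 49.0%. Each list count below is to be set beside the 2.05% higher and 3.11% lower over all tested genes. Counts of positive or negative differences are to be set beside the 44.6% of all tested genes with a positive difference. A list with 1 call in a direction is not set apart by it.

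Library totals recovered from the FPKM steps ran from 12.2 to 25.4 M fragments over the study. In the comparison itself they were 16.1, 15.9 and 21.5 M in the 60mer libraries and 19.2, 18.1 and 17.9 M in the 3mer libraries. The 8 B cell markers were all tested and their levels summed to between 3701 and 4166 FPKM in the 6 libraries, with 1 of 8, Cd22, lower with the 60mer. In bulk RNA, fewer cells of a type and less RNA per cell cannot be told apart.

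Transcripts of connective tissue separated the same groups. The summed level of the collagens Col1a1, Col1a2 and Col3a1 with the matrix genes Bgn, Dcn and Sparc was 10.7, 10.5 and 9.79 FPKM in the 60mer libraries and 0, 0 and 0.131 FPKM in the 3mer libraries. The groups did not overlap, and the exact two-sided permutation test gave p = 0.1, the smallest that 3 against 3 libraries allow. The split had been seen in an earlier look at these data, so the outcome was known before the test and adds no support. Across the study, 8 libraries carried these transcripts at 8.14 to 12.9 FPKM and the other 10 had at most 0.13 FPKM. The carrying libraries were all 6 with the 60mer and 2 of the 3 with the 3mer after control antibody (10, 12.9 and 0.0756 FPKM), so the split lies exactly between the groups compared under mBaffR-mFc and no value within it can be had there. In a fit with carriage as a term, which only the control-antibody 3mer libraries inform, 15 genes passed, 13 of them among the 601. The median standard error was then 0.140, against 0.078 without the term. Of the 601 genes, 600 kept their sign with a median difference of 0.25 in the called direction. That fit holds the same 60mer and 3mer libraries by which the 601 were picked, so the kept sign is no separate support. After control antibody, the 60mer libraries can be set against the 2 carrying 3mer libraries, so that both sides hold these transcripts. There 246 genes passed (2.11%). Of the 601, 577 (96%) had the same sign as under mBaffR-mFc, a share that was not counted over all tested genes. The median difference of the 601 in their called direction was 0.21 there. Of genes described below, Tnfrsf13c (-0.07), Gpr183 (0.01), Bst2 (0.00), Cd48 (-0.10), Klrd1 (-0.07), Cr2 (0.12), Bcl6 (0.15) and Gadd45g (0.24) were among those not called there (limma adjusted p = 0.225 to 0.994). Called in both were 182 genes, 181 of them in the same direction. The exception was Spp1. Each gene's variance came from all groups fitted, so the calls of these comparisons are not separate.

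**Figure D1:**
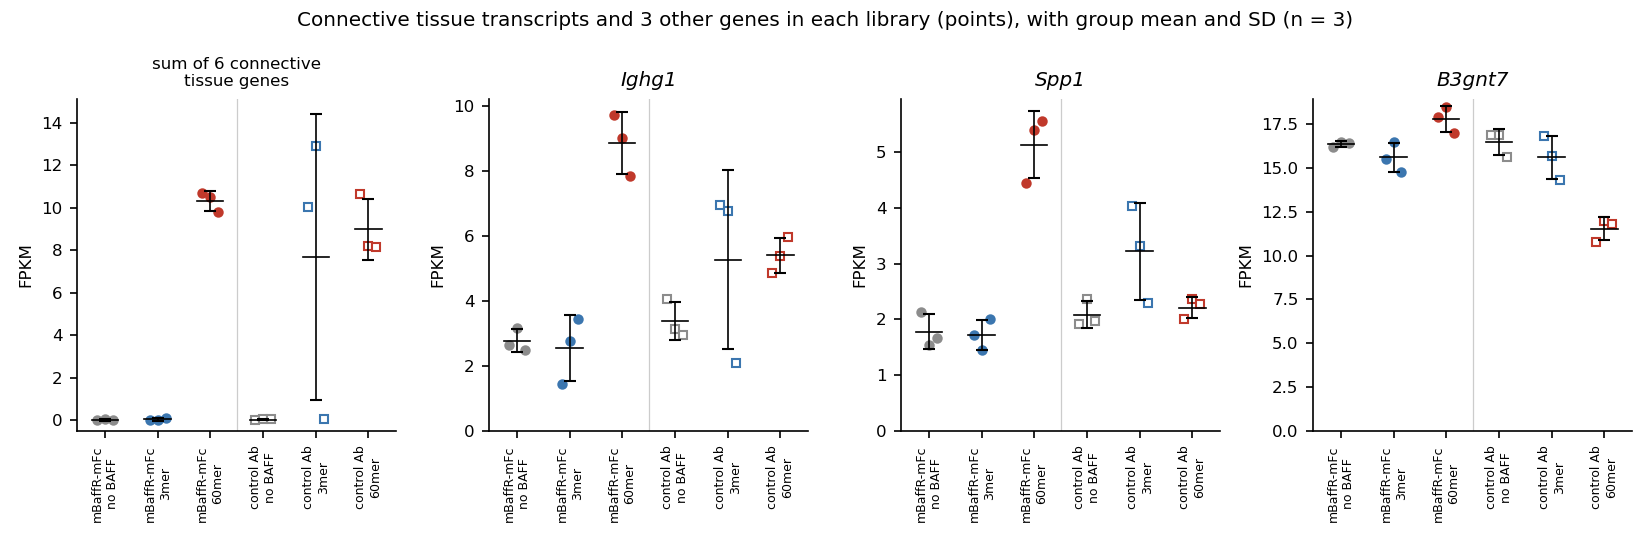
Level in FPKM (vertical axes, from 0) of 6 summed connective tissue genes, Ighg1, Spp1 and B3gnt7 in each of the 18 libraries, by group (horizontal axes); points are libraries and bars the group mean and SD of 3. The sum is near 0 in all 3mer libraries under mBaffR-mFc and 9.79 to 10.7 in all 60mer libraries, while the 3mer libraries after control antibody lie on both sides of the split.

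Enzymes of amino acid breakdown were among the largest rises. Kynu, kynureninase of tryptophan catabolism (chr2:43555329-43682715, GRCm38), stood at 44.4, 46.6 and 43.2 FPKM with the 60mer and at 23.2, 23.1 and 25.6 FPKM with the 3mer. Every 60mer library lay above every 3mer library, and the difference was 0.87 ± 0.049 (SE) with a limma adjusted p of 3.07e-08. Il4i1, a secreted L-amino acid oxidase (chr7:44816387-44840809), was at 252, 300 and 333 FPKM with the 60mer against 140, 141 and 146 FPKM with the 3mer. The 60mer libraries were all higher and spread more widely than the 3mer ones; the difference was 1.04 ± 0.098 (adjusted p = 1.43e-05). Both genes also passed with the connective tissue term, at 0.75 (adjusted p = 0.000728) for Kynu and 1.16 (adjusted p = 0.0124) for Il4i1. In the comparison of carrying control-antibody libraries, Kynu differed by 0.85 and Il4i1 by 0.53. Of 7 tested members of the list of tryptophan and amino acid breakdown, these 2 were higher and 1 was lower: Haao, a later enzyme of the kynurenine route, had a difference of -0.31 (adjusted p = 0.0177) and missed the threshold when either replicate 2 or 3 of either form was left out (adjusted p = 0.0538 to 0.105). The median of the list was 0.09, against -0.016 for all tested genes.

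**Figure D2:**
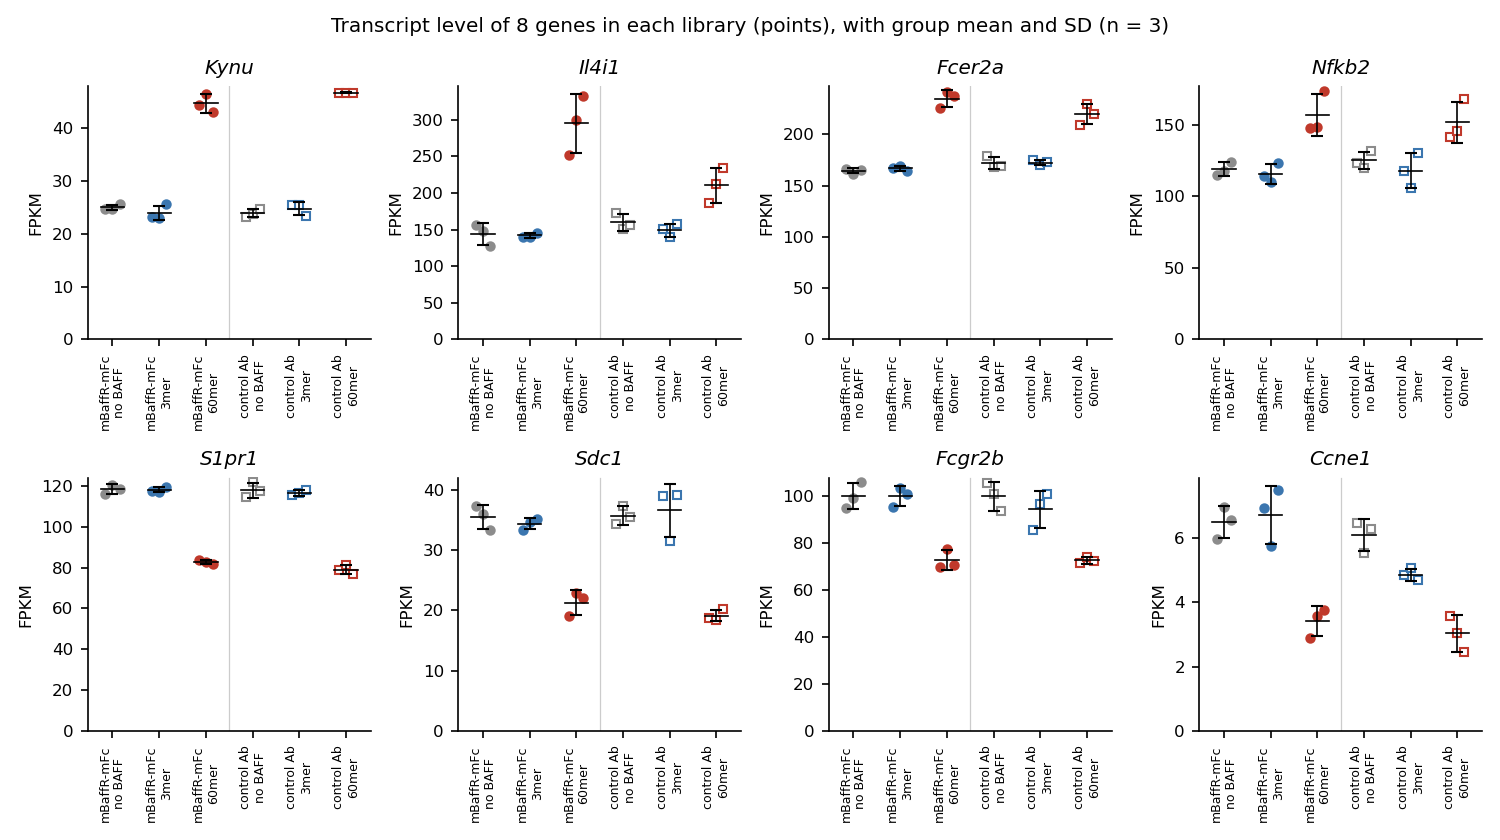
Level of 8 genes in FPKM (vertical axes, from 0) in each library by group (horizontal axes); filled points are mBaffR-mFc, open squares control antibody, and bars the group mean and SD of 3. Under mBaffR-mFc the 60mer libraries stand apart from both the 3mer and the no-BAFF libraries in all 8 genes, as in Kynu, at 43.2 to 46.6 FPKM with the 60mer and 23.1 to 25.6 with the 3mer.

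Of the receptors that bind BAFF, 2 of the 5 listed ligand and receptor genes were expressed enough to be tested. Tnfrsf13c, which encodes BR3, was at 91.8, 99.6 and 93.0 FPKM with the 60mer and 108.8, 109.5 and 106.9 FPKM with the 3mer, with no overlap and a difference of -0.19 ± 0.039 (adjusted p = 0.00787). Tnfrsf13b, which encodes TACI, had a difference of -0.15 that missed the threshold (adjusted p = 0.0514).

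Among the 8 genes of the noncanonical NF-kB pathway, 3 were higher with the 60mer and none was lower, with a list median of 0.09. Nfkb2 (chr19:46304320-46312385), the p100 precursor of the pathway, was at 148, 149 and 174 FPKM with the 60mer and at 114, 109.9 and 123 FPKM with the 3mer. The lowest 60mer library lay above the highest 3mer library (difference 0.43 ± 0.081, adjusted p = 0.00476). Birc3, the ubiquitin ligase cIAP2 that holds NIK in check, stood at 427.5, 423.5 and 409.7 FPKM against 324.0, 321 and 334.9 FPKM, a difference of 0.36 ± 0.036 with no overlap (adjusted p = 2.1e-05). Traf3, the adaptor that recruits NIK for degradation, had a difference of 0.21 (adjusted p = 0.0229) and missed the threshold when any library but replicate 3 of the 60mer was left out (adjusted p = 0.0618 to 0.0795). Relb, the partner of p52, had a difference of 0.10 (adjusted p = 0.238).

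In the canonical pathway and its feedback inhibitors, 3 of 16 tested genes were higher and none was lower (median 0.05). Nfkbie, which encodes the inhibitor IkB epsilon, was at 93.3, 98.3 and 99.0 FPKM with the 60mer and 77.1, 75.0 and 73.5 FPKM with the 3mer. The groups were separate, and the difference was 0.36 ± 0.041 (adjusted p = 7.41e-05). Nfkbia, the inhibitor IkB alpha, and Traf1, an adaptor of TNF receptors, differed by 0.31 and 0.30 (adjusted p = 0.00511 and 0.00391).

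Among 25 tested NF-kB targets known from B cells, 4 were higher and none was lower, and 19 had a positive difference (median 0.16). Cd44, a receptor for hyaluronan that marks activated lymphocytes, was at 59.8, 66.1 and 63.5 FPKM with the 60mer and 47.6, 46.9 and 44.7 FPKM with the 3mer (0.44 ± 0.044, adjusted p = 2.46e-05). Cd40, the receptor for T cell help, differed by 0.37, and Il12a, the p35 subunit of interleukin-12, by 0.52 (adjusted p = 0.00159 and 0.000757). Plek, the fourth of these, passed only at 0.33 (adjusted p = 0.0354) and was lost without 4 of the 6 libraries in turn (adjusted p = 0.0829 to 0.196). Without replicate 1 of the 60mer, 1 target was also lower, and with quality weights 7 were higher and 2 were lower.

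Promoter stretches of called NF-kB and survival genes are shown because every called member of these lists was higher with the 60mer. The bases come from RefSeq on GRCm38.p6 and read 5′ to 3′ on the gene's strand, and capitals mark the kB motif, GGG followed by any 2 bases and TTTCC, found on either strand. Nfkb2 has a match before each of 2 starts, at chr19:46304716-46304736 and chr19:46305695-46305724, plus strand. Those of Nfkbia (chr12:55492648-55492716, minus strand) and Traf3 (chr12:111166320-111166369, plus strand) reach up to the gene's start. The stretch of Bcl2l1, a survival gene described below, is chr2:152830916-152830945, minus strand.
Nfkb2, upstream start: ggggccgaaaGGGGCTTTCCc
Nfkb2, downstream start: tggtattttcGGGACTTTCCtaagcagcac
Nfkbia: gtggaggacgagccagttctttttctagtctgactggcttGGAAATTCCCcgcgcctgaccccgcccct
Traf3: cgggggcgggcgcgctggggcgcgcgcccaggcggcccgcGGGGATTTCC
Bcl2l1: tacgcctctcGGAAAAACCCgggagtggtc
The motif lay in the 300 bases around a start in 8 of 40 genes of the NF-kB lists that had a promoter in the table (20%), and in 180 of 8639 tested genes (2.08%). It was present in 6 of 189 genes that were higher with the 60mer (3.17%) and in 4 of 278 that were lower (1.44%). Of the 8, Nfkb2, Nfkbia and Traf3 were called and Cyld, Ltb, Rel, Tnfaip3 and Traf2 were not. A match describes the letters only.

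Of 15 tested pro-survival genes, 3 were higher and none was lower (median 0.13). Pim2, a serine/threonine kinase that supports B cell survival, was at 73.0, 81.2 and 89.2 FPKM with the 60mer and 51.9, 55.8 and 62.0 FPKM with the 3mer. All 60mer libraries were higher (0.51 ± 0.085, adjusted p = 0.00198). Bcl2l1, which encodes the anti-apoptotic BCL-XL, was at 26.5, 26.5 and 26.1 FPKM against 22.9, 20.1 and 18.4 FPKM (0.35 ± 0.075, adjusted p = 0.0107). Pim1, a related kinase, differed by 0.25 (adjusted p = 0.015). Without replicate 3 of the 3mer, 1 of the 15 genes passed, with adjusted p = 0.0694 for Bcl2l1 and 0.0761 for Pim1; Pim1 also missed without replicate 1 of the 60mer (adjusted p = 0.0683). Of 15 tested pro-apoptotic genes, 1 was lower: Bcl2l11, which encodes BIM, at -0.19 (adjusted p = 0.0441), with overlapping libraries and no call without replicate 1 or 2 of the 3mer or replicate 2 or 3 of the 60mer (adjusted p = 0.113 to 0.181).

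Genes that place B cells in the spleen differed in both directions. Of 22 tested genes of migration and egress, 2 were higher and 6 were lower with the 60mer (median -0.05). S1pr1, the sphingosine 1-phosphate receptor through which lymphocytes leave tissue (chr3:115710433-115715072), was at 83.7, 82.7 and 81.8 FPKM with the 60mer and 118, 117 and 119 FPKM with the 3mer. The spread within each group was far smaller than the gap, and the difference was -0.51 ± 0.035 (adjusted p = 3.59e-07), or -0.48 with the connective tissue term (adjusted p = 0.00548). Klf2, a transcription factor that activates S1pr1, was at 50.8, 55.1 and 51.1 FPKM against 66.4, 69.3 and 73.0 FPKM (-0.40 ± 0.062, adjusted p = 0.00096). Spns2, a transporter that exports sphingosine 1-phosphate, differed by -0.67 (adjusted p = 0.00155). S1pr4, the integrin chain Itgb7 and Rgs2, a regulator of G protein signals, were called at -0.45, -0.57 and -0.29 (adjusted p = 0.0129, 0.0206 and 0.0274). S1pr4 and Itgb7 were lost without replicate 2 or 3 of the 3mer or replicate 1 of the 60mer, and Itgb7 also without replicate 2 of the 60mer (adjusted p = 0.0559 to 0.126), and Rgs2 without any library (adjusted p = 0.0522 to 0.101); 3 lower genes were then left without replicate 2 or 3 of the 3mer or replicate 1 of the 60mer. The oxysterol receptor Gpr183 was higher by 0.40 and Cxcr5, the receptor that draws B cells to follicles, by 0.15 (adjusted p = 0.0115 and 0.0141). Cxcr5 was lost without replicate 2 or 3 of the 3mer or replicate 2 of the 60mer (adjusted p = 0.0551 to 0.0761), and Gpr183 without replicate 3 of the 3mer (adjusted p = 0.0694) or replicate 2 of the 60mer (adjusted p = 0.0512), so that none was then higher.

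Members of both subset lists were called in both directions. Fcer2a, the CD23 receptor that marks follicular B cells (chr8:3681737-3694175), was at 226, 242 and 237 FPKM with the 60mer and 167, 169 and 165 FPKM with the 3mer, with no overlap (0.49 ± 0.040, adjusted p = 2.8e-06). It also passed with the connective tissue term (0.49, adjusted p = 0.0124). Cr2, the complement receptor CD21 that marginal zone cells carry at high level, was at 37.5, 41.0 and 39.1 FPKM against 31.6, 31.0 and 31.2 FPKM (0.32 ± 0.045, adjusted p = 0.000625). Of 12 tested follicular genes 3 were higher and 1 was lower (median 0.03), and of 19 tested marginal zone genes 3 were higher and 3 were lower (median 0.02). List sums, which give abundant genes the most weight, did not overlap between the forms. Follicular sums were 1864, 1883 and 1814 FPKM with the 60mer and 1760, 1742 and 1729 FPKM with the 3mer. Marginal zone sums were 1069, 1065 and 1076 FPKM against 1195, 1246 and 1244 FPKM. After control antibody both sums lay apart in the same directions, and no test was run on them. Cr2, Fcer2a and Cxcr5 were the higher follicular genes and Klf2 the lower one. The higher marginal zone genes were Cr2, Asb2 (0.63, adjusted p = 0.0205) and Marcks (0.35, adjusted p = 0.00115), and Asb2 was lost without replicate 2 of the 3mer or replicate 1 of the 60mer (adjusted p = 0.113 and 0.0912). Plac8, Rasgrp2, an activator of Rap1, and Tm6sf1 were lower, with differences of -0.41, -0.44 and -0.49 (adjusted p = 0.00159, 0.00453 and 0.00895), and Tm6sf1 was lost without replicate 2 of the 3mer (adjusted p = 0.0514). Without replicate 2 of the 60mer a second follicular gene was also lower.

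Of 14 tested inhibitory receptors and phosphatases, 4 were lower and none was higher (median -0.15). Fcgr2b, the Fc receptor that restrains B cell receptor signals, was at 69.9, 77.5 and 70.7 FPKM with the 60mer and 95.5, 104 and 101 FPKM with the 3mer. The groups did not overlap (-0.46 ± 0.063, adjusted p = 0.000485). Ceacam1, an adhesion receptor with inhibitory motifs, differed by -0.61 (adjusted p = 0.00096), and the sialic acid binding receptors Siglecg and Cd22 by -0.44 and -0.16 (adjusted p = 0.0114 and 0.0446). Without replicate 1 of the 60mer, 1 of the 14 was higher and 3 were lower, and with quality weights 2 were higher and 6 were lower. Without replicate 3 of the 3mer, 2 of the 14 passed; Siglecg was then at an adjusted p of 0.0723, and Cd22 missed without 4 of the 6 libraries in turn (adjusted p = 0.102 to 0.199). In the B cell receptor pathway itself, 1 of 24 tested genes was higher and 4 were lower (median -0.02), against 2.05% and 3.11% of all tested genes. Prkcb, a kinase that links the receptor to NF-kB, differed by 0.22, and Btk, the kinase upstream of it, by -0.22 (adjusted p = 0.00485 and 0.00333). With any library left out, 1 or 2 genes of the pathway were lower. Lyn, Blnk and Malt1 were called at -0.19, -0.16 and -0.16, and each was lost in several of these fits (adjusted p = 0.0962 to 0.127 for Lyn without replicate 2 or 3 of the 3mer or replicate 1 or 3 of the 60mer, 0.0515 to 0.122 for Blnk without each library, and 0.0699 to 0.135 for Malt1 without any library but replicate 1 of the 60mer).

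Of 19 transcription factors of B cell identity, 3 were higher, 1 was lower, and the same counts held whichever library was left out (median -0.02). Spib, an Ets factor, was at 246, 249.9 and 253 FPKM with the 60mer and 191, 192 and 188 FPKM with the 3mer (0.39 ± 0.040, adjusted p = 2.46e-05). Bcl6, the germinal centre repressor, was at 37.6, 38.8 and 37.0 FPKM against 28.3, 29.2 and 28.0 FPKM (0.40 ± 0.050, adjusted p = 0.000186), and Lef1 differed by 0.43 (adjusted p = 0.00855). Id3, an inhibitor of E proteins, was at 62.2, 65.2 and 65.3 FPKM against 83.0, 82.8 and 92.2 FPKM (-0.41 ± 0.057, adjusted p = 0.000524). None of these 4 genes overlapped between the forms.

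Genes linked to plasma cells went in opposite directions. Sdc1, the proteoglycan CD138 (chr12:8771323-8793715), was at 19.0, 22.9 and 22 FPKM with the 60mer and 33.4, 34.6 and 35.2 FPKM with the 3mer, and the groups lay far apart (-0.67 ± 0.078, adjusted p = 8.95e-05). Pou2af1, the coactivator OBF-1, was at 446, 451 and 457 FPKM against 331, 342 and 361 FPKM (0.39 ± 0.051, adjusted p = 0.000268). Herpud1, of the endoplasmic reticulum stress response, was called at 0.18 (adjusted p = 0.037) and lost without every library but replicate 3 of the 60mer (adjusted p = 0.0576 to 0.174). In all, 2 of 12 tested plasma cell genes were higher and 1 was lower (median 0.04). The number higher fell to 1 without each of those same libraries, and a second gene was lower without replicate 1 of the 3mer.

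Cell cycle genes of G1 were called in both directions, with 2 of 17 higher and 3 lower (median -0.09). Ccne1, the cyclin of entry into S phase, was at 2.88, 3.57 and 3.77 FPKM with the 60mer and 6.93, 5.74 and 7.51 FPKM with the 3mer, without overlap (-0.81 ± 0.112, adjusted p = 0.000505). Ccnd2, the main D-type cyclin of B cells, differed by 0.33 (adjusted p = 0.00713). Rb1, the retinoblastoma protein, was called at -0.21 (adjusted p = 0.0459) and lost without any library but replicate 1 of the 60mer (adjusted p = 0.0943 to 0.165). Cdk6 and the inhibitor Cdkn1b, called at 0.38 and -0.26, were lost without any library but replicate 1 of the 3mer (adjusted p = 0.05 to 0.228 for Cdk6 and 0.0518 to 0.166 for Cdkn1b). With the same libraries out in turn, 1 gene was higher and between 1 and 3 were lower. In the S phase and mitosis list 1 of 23 genes passed, Mcm5 of the replicative helicase (0.23, adjusted p = 0.0265), and it was lost without all libraries but replicate 1 of the 60mer (adjusted p = 0.0518 to 0.105).

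Of 23 tested genes of sterol synthesis, 8 were higher, none was lower and 21 had a positive difference (median 0.19). Among them were Idi1, Sqle, Cyp51 and Hmgcs1. Idi1, the isomerase of isopentenyl diphosphate, was at 121, 143 and 135 FPKM with the 60mer and 107, 105 and 96.9 FPKM with the 3mer (0.36 ± 0.067, adjusted p = 0.00391). Cyp51, the lanosterol demethylase, was at 71.8, 78.6 and 79.1 FPKM against 59.3, 63.6 and 59.3 FPKM (0.33 ± 0.061, adjusted p = 0.00453). Replicate 1 of the 60mer was the lowest of its group in both genes but above every 3mer library. The count of 8 fell to 5 without replicate 2 of the 3mer, 2 without replicate 3 of the 3mer and 3 without replicate 2 of the 60mer. With quality weights it was 15, and with the connective tissue term none was called (median 0.16). Idi1 and Cyp51 passed in every leave-one-out fit. The other 6 each missed without replicate 3 of the 3mer (adjusted p = 0.051 for Hmgcs1 and 0.0714 for Sqle). After control antibody, 1 of the 23 genes was higher (1.8% of tested genes were) and the list median was 0.13; Idi1 differed by 0.13 there and Cyp51 by 0.14, neither called. Whether the pretreatments differed was tested per gene and no sterol gene passed (for Idi1, 0.23 with a 95% interval of 0.03 to 0.43).

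A sterol element is shown because 8 genes of the list were higher: the Hmgcs1 promoter at chr13:119690174-119690262, plus strand of GRCm38.p6 from RefSeq, with the motif TCACNCCAC in capitals.
Hmgcs1: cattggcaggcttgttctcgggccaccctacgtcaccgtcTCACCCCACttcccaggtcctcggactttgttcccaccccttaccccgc
It was found on either strand in 1 of 16 sterol genes that had a promoter in the table (6.25%) and in 120 of 8639 tested genes (1.39%). Absence of a match says only that these letters are not in the 300 bases searched.

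**Figure D3:**
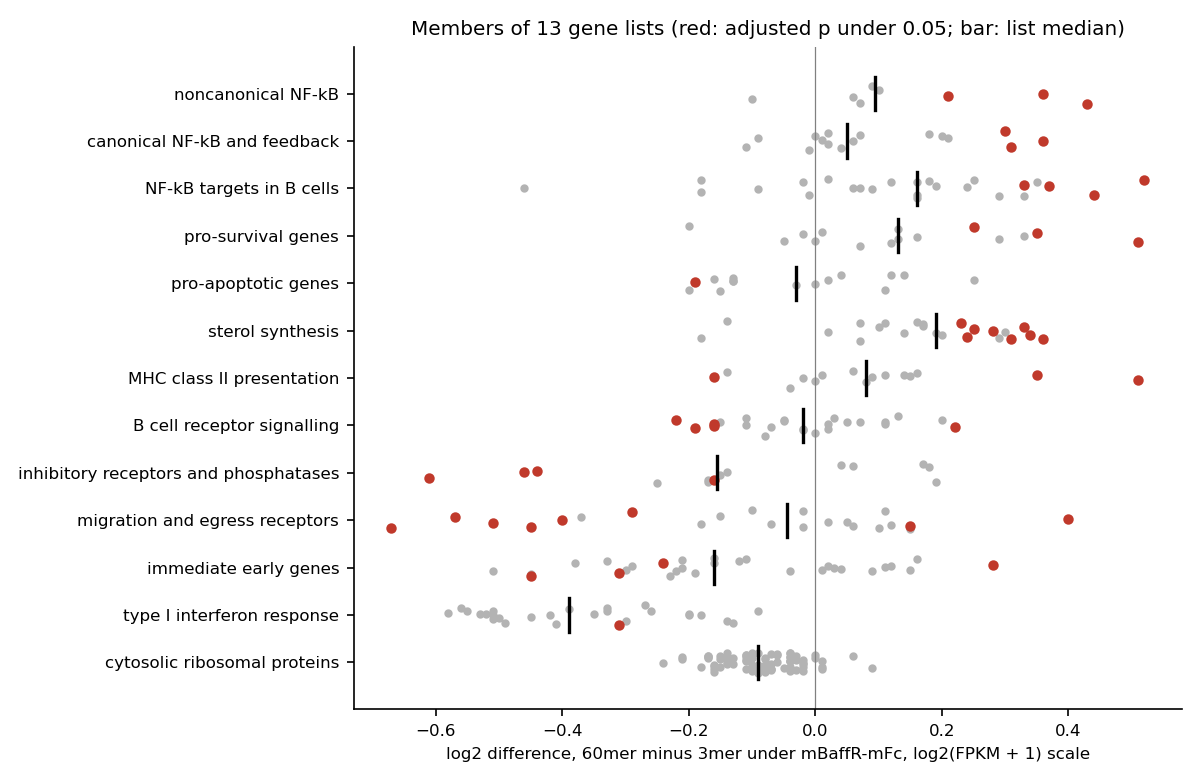
Difference between 60mer and 3mer under mBaffR-mFc (horizontal axis, log2(FPKM + 1) scale) for each member of 13 gene lists (rows); each point is a gene, red points passed an adjusted p under 0.05, and the bar is the list's median. The sterol list has 8 red points, all to the right, and the interferon list lies wholly to the left with a median of -0.39 and 1 red point.

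Interferon response genes lay below 0, with 1 past the test. All 27 tested members had a negative difference, from -0.58 to -0.09, while 44.6% of all tested genes had a positive one. The list median was -0.39 against -0.016 for all tested genes, and 1 member passed, Bst2 at -0.31 (adjusted p = 0.0254). Bst2, which tethers budding virus, was at 23.7, 22.8 and 27.8 FPKM with the 60mer and 31.0, 31.0 and 30.8 FPKM with the 3mer, and it was lost without all libraries but replicate 3 of the 60mer (adjusted p = 0.059 to 0.127). Summed over the list, levels ran from 304 to 361 FPKM in the 60mer libraries and from 374 to 488 FPKM in the 3mer libraries. These sums did not overlap, but the spread within the 3mer group was wide. After control antibody the list median was -0.11 and no member passed. Under mBaffR-mFc, 2 members were lower without replicate 3 of the 60mer, and 15 of the 27 with quality weights on the libraries (median -0.42). With the connective tissue term none was called and the median was -0.14.

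Antigen presentation differed in a few genes. Ifi30, the lysosomal thiol reductase that unfolds antigen, was at 142, 140.4 and 148 FPKM with the 60mer and 92.6, 102 and 106.5 FPKM with the 3mer (0.51 ± 0.059, adjusted p = 8.38e-05), and it passed with the connective tissue term (0.58, adjusted p = 0.0494). Ciita, the master activator of class II genes, was at 44.9, 49.6 and 47.3 FPKM against 36.0, 36.2 and 38.7 FPKM (0.35 ± 0.057, adjusted p = 0.00159). No 60mer library of either gene reached down to the 3mer range. Of 15 tested class II genes, 2 were higher and 1 was lower (median 0.08), the latter being H2-Ob at -0.16 (adjusted p = 0.0476), which passed of the leave-one-out fits only in that without replicate 1 of the 3mer. Of 15 tested class I genes 3 were higher, the chaperones Calr and Canx and the peptidase Erap1, by 0.20 to 0.22 (median -0.04). Canx passed in every leave-one-out fit, and 1 gene was left without replicate 1 or 3 of the 3mer or replicate 2 of the 60mer.

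Immediate early genes had a negative median of -0.16, with 1 of 29 higher and 3 lower. Zfp36l1, an RNA-binding protein that promotes mRNA decay, was at 102, 103 and 98.3 FPKM with the 60mer and 83.1, 83.1 and 82.7 FPKM with the 3mer (0.28 ± 0.035, adjusted p = 0.000186). Btg2, an antiproliferative factor, was at 118, 122 and 118.5 FPKM against 139.6, 141 and 143 FPKM (-0.24 ± 0.036, adjusted p = 0.000972), and Plk2, a polo-like kinase, differed by -0.45 (adjusted p = 0.000674). Dusp5, a phosphatase of ERK, was called at -0.31 (adjusted p = 0.0379) and lost without every library but replicate 1 of the 60mer (adjusted p = 0.0832 to 0.143). Without replicate 1 of the 60mer, 9 members were lower instead of 3. In the integrated stress response list 2 of 20 genes were lower (median -0.10): Ddit3, the factor CHOP, was at 40.1, 37.1 and 35.5 FPKM against 52.2, 51.5 and 46.8 FPKM (-0.41 ± 0.072, adjusted p = 0.00326). Cebpb, the other, differed by -0.35 (adjusted p = 0.016). It was lost without replicate 3 of the 3mer or replicate 2 or 3 of the 60mer (adjusted p = 0.055 to 0.0931), which left 1.

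Enzymes that build glycans were lower where they differed, with 1 exception. Of 17 tested, 4 were lower and 1 was higher (median -0.02). Gcnt1, which branches core O-glycans, was at 12.7, 11.5 and 10.9 FPKM with the 60mer and 16.3, 16.5 and 17.5 FPKM with the 3mer (-0.49 ± 0.072, adjusted p = 0.000765). Cmah, which makes the sialic acid Neu5Gc, was at 65.4, 62.7 and 59.1 FPKM against 84.2, 79.4 and 82.5 FPKM (-0.39 ± 0.059, adjusted p = 0.000862). B3gnt5, of lactosylceramide extension, differed by -0.27 and B3gnt8 by -0.65 (adjusted p = 0.00125 and 0.0152). B3gnt8 was lost without replicate 3 of the 3mer or replicate 1 of the 60mer (adjusted p = 0.093 and 0.0701). The higher gene was Man1a, a mannosidase (0.19, adjusted p = 0.0416), and no gene of the list was higher once any library was left out.

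Lists of activation, metabolism and growth held few further calls. Among 18 activation and costimulation genes, Cd44 and Cd40 were higher and Cd48 was lower (-0.33, adjusted p = 0.00286; median -0.06). Among 17 cytokine and chemokine genes, Il12a was higher and Il16 was lower (-0.20, adjusted p = 0.0284; median -0.06), and Il16 was lost without every library but replicate 1 of the 3mer (adjusted p = 0.0556 to 0.154). None of 79 cytosolic ribosomal protein genes and none of 76 genes of oxidative phosphorylation passed limma, with medians of -0.09 and -0.05. Of 23 genes of MYC and ribosome biogenesis 2 were higher (Cad, of pyrimidine synthesis, and Polr1a, of RNA polymerase I, at 0.26 and 0.23) and none was lower (median 0.08). Both were lost without replicate 2 or 3 of the 3mer or replicate 2 of the 60mer (adjusted p = 0.065 to 0.155), Cad also without replicate 1 of the 3mer or 3 of the 60mer (adjusted p = 0.0587 and 0.103) and Polr1a without replicate 1 of the 60mer (adjusted p = 0.102). Of 22 glycolysis and transporter genes 1 passed, Hk2 at 0.27 (adjusted p = 0.0346), and it was lost without any library but replicate 1 of the 3mer (adjusted p = 0.0693 to 0.194). Of 181 tested immunoglobulin V segments, which share similar sequence and so have uncertain levels, 1 was lower, Igkv13-85 (-0.97, adjusted p = 0.0328), and it was lost without any library (adjusted p = 0.0564 to 0.13). Of 10 tested long noncoding RNAs 1 was lower, Neat1 at 41.5, 47.3 and 52.7 FPKM against 60.3, 65.8 and 70.8 FPKM (-0.47, adjusted p = 0.01), and it was lost without replicate 3 of the 3mer (adjusted p = 0.0624).

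The largest rises and falls included genes outside these lists. Gadd45g, a stress-inducible growth arrest gene, was at 9.39, 15.1 and 15.9 FPKM with the 60mer and 6.03, 7.64 and 5.73 FPKM with the 3mer, and all 60mer libraries were higher (0.93 ± 0.160, adjusted p = 0.00256). Chst10, a carbohydrate sulfotransferase, differed by 0.64, and Lyst, a regulator of lysosome size, by 0.63 (adjusted p = 2.46e-05 and 0.000862). Hepacam2, an adhesion molecule of the immunoglobulin superfamily, was at 5.58, 7.03 and 5.2 FPKM against 9.76, 9.66 and 11.1 FPKM (-0.69 ± 0.102, adjusted p = 0.000759). Crip1, a LIM domain protein, differed by -0.60 (adjusted p = 0.00301). Among genes that also passed with the connective tissue term, and were named for that reason after their values were seen, Lpcat1, of phospholipid remodelling, was at 83.0, 88.5 and 89.6 FPKM with the 60mer and 54.8, 59.6 and 58.3 FPKM with the 3mer (0.59, or 0.64 with the term). Sla, an adaptor that dampens antigen receptor signals, was at 55.1, 53.5 and 50.6 FPKM against 72.5, 75.7 and 75.8 FPKM (-0.49, or -0.50 with the term). Ift140, Rapgef1 and Nid1 likewise passed in both fits.

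**Figure D4:**
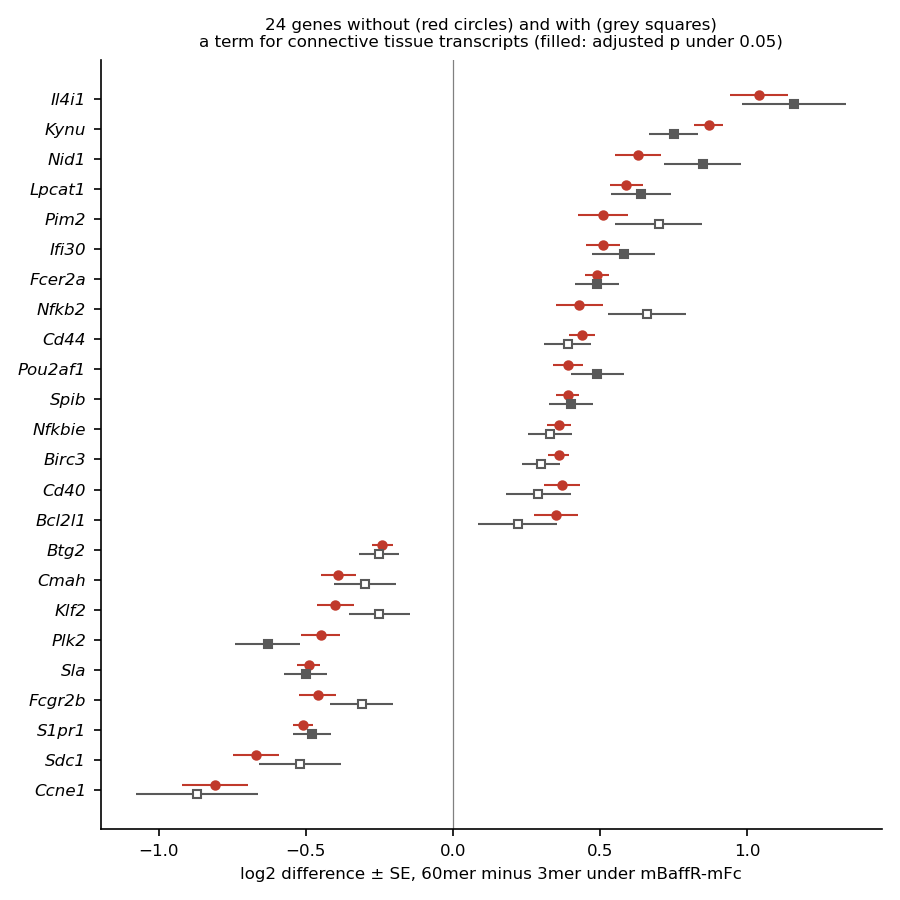
Difference between 60mer and 3mer under mBaffR-mFc with its standard error (horizontal axis, log2(FPKM + 1) scale) for 24 genes (rows), from the fit without (red circles) and with (grey squares) a term for connective tissue transcripts; filled symbols passed an adjusted p under 0.05. All 24 keep their direction, and 11 remain filled with the term, Kynu at 0.75 and S1pr1 at -0.48 among them. The 24 were picked by hand and hold most of the genes that passed with the term, which were 13 of all 601 called.

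All 8 libraries with connective tissue transcripts had more Ighg1 than any of the other 10. Ighg1, the constant region of IgG1, was at 9.71, 9 and 7.85 FPKM with the 60mer and 1.44, 2.77 and 3.45 FPKM with the 3mer, a difference of 1.51 ± 0.274 (adjusted p = 0.00381). After control antibody the 3mer libraries had 6.94, 6.77 and 2.08 FPKM, the lowest being the one without connective tissue transcripts, and the 60mer libraries had 4.87, 5.37 and 5.96 FPKM. Between the carrying control-antibody libraries the difference was -0.30 (adjusted p = 0.499), and with the connective tissue term the difference under mBaffR-mFc was 0.16 (adjusted p = 0.941). Constant regions of the IgG genes resemble each other, so the share of reads that belongs to Ighg1 is uncertain. Col3a1, the 1 gene of the connective tissue list above the level filter, was at 4.16, 3.98 and 3.74 FPKM with the 60mer and 0, 0 and 0.0619 FPKM with the 3mer.

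Markers of other cell types were compared as whole lists. T cell markers summed to 5.44 to 6.87 FPKM with the 60mer and 5.78 to 7.32 FPKM with the 3mer, overlapping, and none of 3 tested passed. The lists of NK cells (162 to 163 against 168 to 184 FPKM), dendritic cells (204 to 211 against 232 to 234 FPKM) and platelets (17.2 to 18.7 against 19.6 to 21.6 FPKM) had sums that did not overlap between the forms. Monocyte and macrophage markers summed to 182 FPKM with the 60mer and to between 184 and 207 FPKM with the 3mer, endothelial and stromal markers to 61 to 62.4 against 64.4 to 69.5 FPKM, also without overlap. Each of these lists without overlap had its lower sums with the 60mer, whereas the connective tissue sum above was higher with it (9.79 to 10.7 against 0 to 0.131 FPKM). The exact permutation test of 3 against 3 libraries can reach no less than p = 0.1. Of the marker lists, it was run on the connective tissue sum only. Neutrophil (29.8 to 32.2 against 28.8 to 38.1 FPKM) and erythroid sums (3.03 to 4.05 against 3.57 to 4.02 FPKM) overlapped. Klrd1 of the NK list was called lower (-0.34, adjusted p = 0.00855), as was Cd14 of the monocyte list (-0.38, adjusted p = 0.0161). Cd14 was lost without replicate 2 of the 3mer or replicate 2 or 3 of the 60mer (adjusted p = 0.0609 to 0.0779). Of the dendritic cell list, Zbtb46 was higher (0.61, adjusted p = 0.00096) and Cst3 and Bst2 were lower; Cst3 (-0.19) was lost without any library (adjusted p = 0.0563 to 0.123). The part these markers play in the differences above was not tested.

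Against the cells that received mBaffR-mFc and no BAFF, the forms gave unlike counts, and since these comparisons share libraries with the one above, only each one's own values are given. With the 60mer, 563 genes passed (4.83%), 170 higher (1.46%) and 393 lower (3.37%). This count fell to 306 and 242 without replicate 2 or 3 of the no-BAFF group and to 340 and 321 without replicate 1 or 2 of the 60mer. With the 3mer, no gene passed by limma (388 were at an unadjusted p under 0.05), 1 passed without replicate 1 of the 3mer, and 2 passed when only these groups were fitted. The 388 are fewer than that cutoff admits on average among 11646 genes where nothing differs. Kynu was at 24.7, 24.8 and 25.6 FPKM without BAFF, so that the 3mer differed from no BAFF by -0.06 with a 95% interval of -0.17 to 0.04, and the 60mer by 0.81. For Il4i1 the corresponding values were -0.02 (-0.22 to 0.19) and 1.03, for Nfkb2 -0.04 (-0.21 to 0.13) and 0.39, and for Sdc1 -0.05 (-0.21 to 0.12) and -0.72. Intervals that include 0 do not show that the 3mer had no action.

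The same forms after control antibody were compared on libraries other than the 6 above. Each gene's variance was still taken over all 18 libraries, so the standard errors, and with them the calls, are not separate. After control antibody 560 genes passed (4.81%), 210 higher (1.8%) and 350 lower (3.01%) with the 60mer. Genes called under both pretreatments numbered 310, all in the same direction, which is 51.6% of the calls under mBaffR-mFc and 55.4% of those after control antibody. Of the 601 genes, 582 (96.8%) had the same sign after control antibody, where their median difference in the called direction was 0.22. The share of same signs over all tested genes was not counted, so how far this is particular to the 601 is not known. The count after control antibody was 318, 246, 259 and 353 without replicate 1 or 3 of the 3mer or replicate 1 or 2 of the 60mer.

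**Figure D5:**
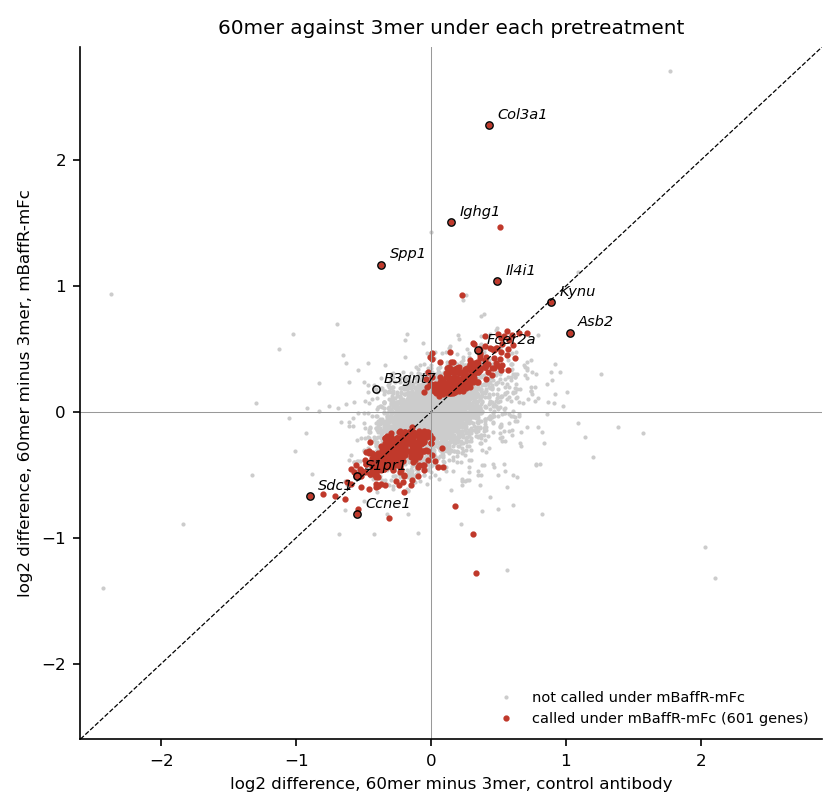
Difference between 60mer and 3mer for each of 11646 genes after control antibody (horizontal axis) and under mBaffR-mFc (vertical axis), both on the log2(FPKM + 1) scale; red points are the 601 genes called under mBaffR-mFc and the broken line marks equal differences. Kynu lies near the line at 0.89 and 0.87, and Spp1 lies on opposite sides of 0 at -0.37 and 1.17.

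Whether the gap between 60mer and 3mer itself changed with the pretreatment was tested as an interaction, given as mBaffR-mFc minus control antibody. It passed in 2 of 11646 genes (0.0172%), with 488 at an unadjusted p under 0.05, fewer than that cutoff admits on average where nothing differs. Spp1, the secreted phosphoprotein osteopontin, was at 4.45, 5.4 and 5.57 FPKM with the 60mer and 1.72, 1.45 and 2 FPKM with the 3mer under mBaffR-mFc, and at 2, 2.37 and 2.27 against 4.04, 3.32 and 2.30 FPKM after control antibody. The 60mer libraries were the higher ones under mBaffR-mFc and mostly the lower ones after control antibody (interaction 1.55 ± 0.196, adjusted p = 0.00615). B3gnt7, which extends keratan sulfate chains, was at 17.9, 18.5 and 17 FPKM against 15.5, 16.5 and 14.8 FPKM under mBaffR-mFc and at 10.8, 12 and 11.8 against 16.8, 15.7 and 14.3 FPKM after control antibody (interaction 0.58 ± 0.089, adjusted p = 0.0298). With the connective tissue term neither passed (adjusted p = 0.109 for Spp1 and 0.738 for B3gnt7). With 1 library left out, Spp1 passed in all 12 fits, and B3gnt7 missed in 9 of them (adjusted p = 0.0516 to 0.155). Without replicate 3 of the 3mer after control antibody, the library of that group without connective tissue transcripts, Col3a1 and Ighg1 passed as well. For Col3a1 this follows from the library dropped, since all remaining control-antibody libraries of both forms carried these transcripts.

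For most genes the interaction was not called, and its interval gives the difference these libraries allow. For Kynu it was -0.02 with a 95% interval of -0.16 to 0.13, for Birc3 0.03 (-0.08 to 0.13), for Nfkbie -0.04 (-0.16 to 0.08) and for S1pr1 0.05 (-0.06 to 0.15). These intervals are narrow beside the differences between the forms, which in the same genes were 0.36 or more in size under mBaffR-mFc. For Il4i1 the interaction was 0.55 (0.26 to 0.84, adjusted p = 0.849), with 252, 300 and 333 FPKM under mBaffR-mFc against a mean of 211 FPKM after control antibody in the 60mer libraries. Bcl6 (0.25, 0.10 to 0.40) and Ccnd2 (-0.23, -0.43 to -0.04) likewise had intervals that did not include 0 and no adjusted p under the threshold.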

How the data were processed

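Deposited values were FPKM, which per the labels' protocols a sequencing company determined for the authors from total RNA of the 18 cultures. The aligner, counting tool, strand setting and genome build were not given in the sources used here. Of 35275 Ensembl IDs, 34490 matched GENCODE M21 (GRCm38), the source of symbols and gene positions; promoters are RefSeq's (GRCm38.p6). Library totals were recovered from FPKM steps on annotated gene lengths, with 84.3% of the low values checked whole to within 0.1 fragment; a lone fragment over 1000 bases equals 0.0394 to 0.0819 FPKM depending on the library, and low genes are correspondingly imprecise.

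Genes whose mean over 18 libraries reached 1 FPKM were tested on log2(FPKM + 1) with limma 3.58.1 in R 4.3.3 (eBayes with a trend, 1 variance per gene over 6 groups of 3, Benjamini-Hochberg over 11646 genes, threshold 0.05). Log differences of low genes understate their ratios. The script was tested on simulated data. Replicates are numbered in accession order, and the labels pair none.

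Named were up to 10 largest rises and 10 largest falls of at least 2 FPKM in the higher group with no overlap and no provisional symbol, up to 4 called members of each of 41 gene lists (2 with the smallest p where none was called), up to 3 interaction genes per direction, a panel of 16 genes and the connective tissue genes; some are not reported here. Lpcat1, Sla, Ift140, Rapgef1, Nid1, Gpr183, Rgs2, Marcks, Malt1, Rb1, Man1a, Tnfrsf13b and the motif-bearing genes that were not called are named outside that rule, after their values were seen. Members and lists were chosen with earlier results of these data known. Alternatives were a pseudocount of 0.1, no filter or a mean of 5 FPKM, quality weights, rescaling by the median of ratios, terms for the library total or connective tissue carriage (above 1 FPKM summed), dropping 1 library at a time, and fitting the groups of a comparison alone. Tables and figures were made with Python 3.11.15, pandas 2.3.3, numpy 2.4.6, scipy 1.17.1 and matplotlib 3.10.9.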

Additional observations from a re-analysis of the deposited data

Results flagged for a closer look

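In 2 genes the difference between 60mer and 3mer differed between the pretreatments by a test of that difference itself. For Spp1 the gap under mBaffR-mFc exceeded that after control antibody by 1.55 (log2 scale, 95% interval 1.13 to 1.96), the forms differing by 1.17 under mBaffR-mFc and -0.37 after control antibody. For B3gnt7 the corresponding value was 0.58 (0.40 to 0.77), from 0.18 and -0.41. Spp1 missed the threshold with the connective tissue term (adjusted p = 0.109) and when only the groups compared were fitted (adjusted p = 0.0675). B3gnt7 missed it in those fits (adjusted p = 0.738 and 0.319) and with the library total as a term (adjusted p = 0.165). It also missed in 9 of the 12 fits that leave out 1 library (adjusted p = 0.0516 to 0.155), whereas Spp1 passed in all 12 (highest adjusted p = 0.0365).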

How the results depend on the processing

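The 601 genes called between 60mer and 3mer under mBaffR-mFc became 1318 with quality weights, 15 with the connective tissue term, 287 with only the groups compared and 233 to 543 with 1 library left out. The 560 after control antibody became 246 with the connective tissue term, 165 with the library total term, 252 with only the groups compared and 246 to 471 with 1 library left out. The 2 interaction genes became 1 at a mean of 5 FPKM (B3gnt7, Spp1 being too low to be tested), 1 with the library total term (Spp1), 1 with the connective tissue term, a different gene of opposite sign (Gm47283, -0.81), 0 with only the groups compared (limma) and 1 to 4 with 1 library left out. The 563 genes of 60mer against no BAFF under mBaffR-mFc became 1386 with quality weights, 10 with the connective tissue term, 272 with the library total term, 139 with only the groups compared and 242 to 731 with 1 library left out; with median-of-ratios rescaling 226 were higher and 289 lower, so the higher share went from 30.2% to 43.9%. The count of 0 for 3mer against no BAFF became 2 with only the groups compared and 0 to 1 with 1 library left out. Col3a1 reversed with the connective tissue term (-0.14), but it is part of the sum that sets this term, so the loss of its difference was built in. Fewer samples enter the fits of only the groups compared and those with a library left out; for the other settings the cause was not tested. No paired analysis was run, because the labels give no replicate numbers. In accession order under mBaffR-mFc, immediate early genes summed to 2079, 1974 and 1786 FPKM with the 3mer and 2115, 1810 and 1645 FPKM with the 60mer. Without BAFF the sums were 1926, 1745 and 1755 FPKM. After control antibody they were 1959, 1886 and 1807 FPKM without BAFF and 2253, 2074 and 1847 FPKM with the 3mer. With the 60mer they were 1941, 1941 and 1685 FPKM there. Interferon response genes summed in that order to 374, 430 and 488 FPKM with the 3mer and 361, 304 and 355 with the 60mer under mBaffR-mFc. After control antibody their sums were 366, 357 and 425 FPKM with the 3mer and 348, 330 and 403 with the 60mer. Whether accession order marks a shared source was not tested. The precision is limited by 3 libraries per group and, for genes near 1 FPKM, by fragment counts.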
